A study of Mus musculus with 7 samples.

Results

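The interferon regulatory factors (IRFs) are transcription factors that bind DNA through a conserved amino-terminal domain and read out the sensing of microbes and of interferons. The members described here are the 8 genes whose symbols are Irf1, Irf2, Irf3, Irf4, Irf5, Irf7, Irf8 and Irf9, found by symbol among 48440 genes of an LPS experiment and 55352 genes of an AAV experiment. All 8 were listed in both tables. The cells were mouse bone marrow-derived macrophages (BMDMs), which are grown from marrow in M-CSF, here at 20 ng per mL. In the LPS experiment, WT BMDMs received no treatment (0 h) or lipopolysaccharide, a bacterial cell wall component that signals through the receptor TLR4, at 100 ng per mL for 2 h or 4 h, and each time point was 1 library. In the AAV experiment, BMDMs received, over 48 h, an adeno-associated virus (AAV) that carried GFP (genotype labelled WT, 2 samples) or Shisa3, a transmembrane protein (genotype labelled Shisa3 overexpression, 2 samples), both from the ubiquitous CAG promoter. The GFP virus is the control, so both AAV groups had met a viral vector.

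As background, IRF3 and IRF7 are phosphorylated by the kinases TBK1 and IKKε downstream of TLR4, TLR3 and the nucleic acid sensors, and they switch on type I interferon genes. Interferon then acts back through its receptor, and IRF9 with STAT2 in the complex ISGF3 binds the interferon-stimulated response element (ISRE). A second element of interferon-induced promoters is the gamma-activated sequence (GAS). IRF1 and IRF5 drive inflammatory genes, IRF2 often opposes IRF1, IRF8 partners PU.1 in macrophages and dendritic cells, and IRF4 is linked to plasma cells and to alternative activation of macrophages.

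Macrophage markers were at high levels in every library and none of the 7 was at 0: their summed level was 34024 to 37119 TPM (transcript abundance scaled to a total of 1000000) in the AAV samples, and in LPS it was 32467, 20689 and 17389 RPM (reads scaled to the same total) but 325562, 328138 and 308605 on the authors' scale, so its fall with time depended on the scale. Markers of B and plasma cells, plasmacytoid and conventional dendritic cells, T cells and fibroblasts summed to at most 62.2 RPM or TPM in any library. On the authors' scale the sums of all 5 sets were higher with LPS than at 0 h, from 384 to 987 and 786 for B and plasma cells, from 129 to 426 and 384 for T cells, from 22.5 to 65.5 and 63.0 for plasmacytoid dendritic cells, from 52.1 to 78.6 and 78.8 for conventional dendritic cells and from 459 to 714 and 541 for fibroblasts. In RPM the sums of fibroblasts (45.7, 45.0 and 30.5) and conventional dendritic cells (5.20, 4.96 and 4.44) were instead lower with LPS. Those of the other sets were higher in RPM too. The part of these sets in the LPS folds was not tested. Neutrophil markers were higher, at 247 to 290 RPM in the LPS libraries (2698, 4594 and 4383 on the authors' scale) and 481 to 897 TPM in the AAV samples. The LPS libraries held 15588502 (0 h), 7263258 (2 h) and 32659392 (4 h) reads, which made the 2 h library the shallowest. The depth of the AAV samples is unknown. Shisa3 itself was listed at 7.88 and 10.9 TPM in the GFP group against 12.3 and 17.8 TPM in the Shisa3 group. The AAV-Shisa3 samples lay above the AAV-GFP samples, with a log2 fold change of 0.63 that did not pass the test (limma, adjusted p = 0.138).

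The promoters of all 8 members were searched for motifs. Stretches upstream of the RefSeq transcription starts of Irf1, Irf2 and Irf8 are shown because only these 3 of the 8 members had a match to any of 3 motifs searched on both strands: ISRE (GAAA, any 2 bases, then GAAA), GAS (TTC, any 3 bases, then GAA) and the NF-κB consensus. The windows ran from 250 bases before to 50 bases after each start, and 11 windows covered the 8 members. Across 32851 RefSeq promoters of the same length, 3.44% held the ISRE letters, 8.3% the GAS letters and 4.51% the NF-κB consensus. Each stretch is on the forward strand of GRCm38.p6 (RefSeq), 5′ to 3′, with the matched letters in capitals.
Irf1, chr11:53769894-53770013, GAS then NF-κB: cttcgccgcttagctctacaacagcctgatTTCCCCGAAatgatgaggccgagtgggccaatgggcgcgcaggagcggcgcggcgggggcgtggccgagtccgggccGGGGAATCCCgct
Irf2, chr8:46739502-46739531, ISRE then GAS: gtGAAAATGAAAttgacttTTCCGAGAAat
Irf8, chr8:120736157-120736243, GAS and GAS: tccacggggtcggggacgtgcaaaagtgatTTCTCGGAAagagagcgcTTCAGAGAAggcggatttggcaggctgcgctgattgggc
In Irf1 the GAS match lay at positions -90 to -82 and the NF-κB match at -13 to -4 from the start, where -1 is the last base before it. Irf2 had a further NF-κB match at -17 to -8, and the GAS matches of Irf8 lay at -171 to -163 and -153 to -145. For Irf3, Irf4, Irf5, Irf7 and Irf9 these letters were not in the windows searched, and part of some windows lay in annotated exons, including all 250 upstream bases of 1 Irf9 window. The Irf2 stretch overlaps annotated exons, the others none. A match is a description of the letters and no measure of binding.

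The first question was how the IRF family moved when BMDMs were activated by LPS. At 2 h, Irf1, Irf7, Irf8, Irf9 and Irf5 were at least 2-fold higher than at 0 h and Irf4 was at least 2-fold lower. At 4 h, Irf7, Irf1, Irf2, Irf8 and Irf9 were at least 2-fold higher and Irf4 was again lower. Irf3 stayed within 2-fold of its 0 h level at both times. Among all 17854 genes compared, 20.5% were at least 2-fold higher and 24.7% at least 2-fold lower at 2 h, against 5 and 1 of the 8 members, and at 4 h the shares were 22.2% and 23.6%, again against 5 and 1 members. Over all genes the log2 fold change had a median of -0.05 at 2 h and of -0.04 at 4 h. With 1 library a time point these differences have no replicate check, the intervals given below cover counting error only, and the comparisons with 0 h share the 0 h library. In such bulk RNA, fewer cells of a type and less RNA per cell cannot be told apart.

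**Figure D1:**
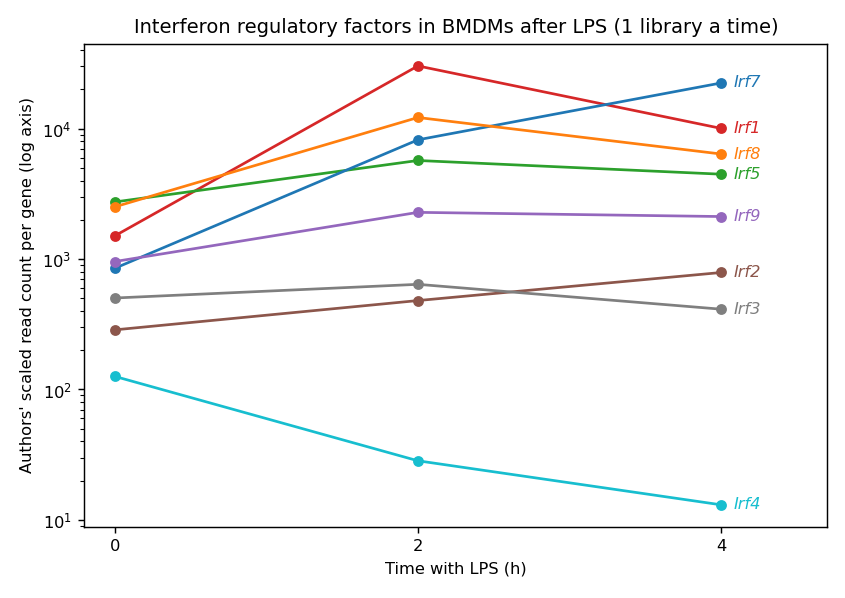
Authors' scaled read count of each IRF gene (log axis) against hours with LPS, with 1 point for each library and time point. Irf1 peaks at 2 h with 30233, Irf7 is highest at 4 h with 22393, and Irf4 falls from 126 to 13.0.

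Irf1 (chr11:53770014-53778374, forward strand, GRCm38, GENCODE M21), an early-response activator of interferon-induced genes, had values, the authors' scaled read counts, of 1501, 30233 and 10029 in the 0 h, 2 h and 4 h libraries. It was highest at 2 h and still well above its starting level at 4 h. The fold was 20.1 at 2 h (95% interval 19.3 to 21.0) and 6.68 at 4 h (6.40 to 6.98), from 2334, 13845 and 18456 reads. Between 2 h and 4 h the value fell to 0.332 of its 2 h level. Irf2 (chr8:46739732-46847458, forward), which competes with IRF1 for the same sites, moved on another course. Its values were 286, 480 and 788, highest at 4 h, with folds of 1.68 (1.42 to 1.98) and 2.75 (2.48 to 3.07). At 2 h Irf2 rested on 220 reads, so its fold there is less precise than that of Irf1.

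Irf7 (chr7:141262706-141266481, reverse strand), the interferon-inducible factor that amplifies type I interferon, had values of 848, 8202 and 22393. It was higher at each later time. The fold was 9.67 at 2 h (9.08 to 10.3) and 26.4 at 4 h (25.0 to 27.9), which was the highest of the members at that time, and Irf7 was the member that was at least 2-fold higher at 4 h than at 2 h (2.73-fold, 2.64 to 2.82), against 17.9% of all genes. Irf3 (chr7:44997648-45002848, forward), its constitutive counterpart that is activated by phosphorylation, had values of 502, 640 and 412. Its fold was 1.27 at 2 h (1.11 to 1.46) and 0.821 at 4 h (0.742 to 0.908), and both directions depended on how the libraries were scaled: the log2 fold change was 0.35 at 2 h but -0.31 with library totals, and -0.28 at 4 h but 0.09 after centring on library medians. Irf5 (chr6:29526625-29541871, forward), which acts downstream of MyD88 on inflammatory cytokine genes, had values of 2737, 5695 and 4471. The 2 h library was highest, with folds of 2.08 (1.98 to 2.19) and 1.63 (1.57 to 1.70). At 4 h the direction flipped with library totals, from a log2 fold change of 0.71 to -0.12.

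Irf8 (chr8:120736358-120756694, forward), the myeloid lineage factor, had values of 2509, 12167 and 6383. Like Irf1 it was highest at 2 h, with folds of 4.85 (4.65 to 5.05) and 2.54 (2.45 to 2.64), and from 2 h to 4 h it fell to 0.525 of its level. Irf9 (chr14:55603571-55610030, forward), the DNA-binding subunit of ISGF3, had values of 956, 2280 and 2117. It was higher at both later times, 2.38-fold (2.20 to 2.58) and 2.21-fold (2.09 to 2.35). Irf4 (chr13:30749226-30766976, forward) had values of 126, 28.4 and 13.0 from 196, 13 and 24 reads. It was the lowest member at every time, also per length, and lower at each later one, at 0.225 of its 0 h level at 2 h (0.118 to 0.394) and 0.103 at 4 h (0.0647 to 0.158). Irf1 and Irf4 were at least 2-fold lower at 4 h than at 2 h, against 15.2% of all genes, and that of Irf4 rests on 13 and 24 reads.

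How far the members moved depended on the scale. The authors' values give 1 RPM a weight of 10.0, 15.9 and 17.7 in the 0 h, 2 h and 4 h libraries, and scaling by library totals lowers every fold and moves the median over genes to -0.68 for 2 h and -0.80 for 4 h on the log2 scale. With library totals the folds at 2 h were 12.7 for Irf1, 6.12 for Irf7, 3.07 for Irf8, 1.51 for Irf9, 1.32 for Irf5, 1.06 for Irf2, 0.805 for Irf3 and 0.142 for Irf4. At 4 h they were 14.9 for Irf7, 3.77 for Irf1, 1.56 for Irf2, 1.44 for Irf8, 1.25 for Irf9, 0.923 for Irf5, 0.464 for Irf3 and 0.0584 for Irf4. The rises of Irf1, Irf7, Irf8, Irf9 and Irf2 and the fall of Irf4 kept their direction at both times under the authors' factors, library totals, TMM factors and centring, with Irf2 at 2 h at 1.06 (0.899 to 1.25) on library totals, whereas the 2-fold count of risen members dropped with library totals to 3 (2 h) and 2 (4 h), from 5 at each time. Of all genes, library totals put 13.6% at least 2-fold up and 39.6% down at 2 h, and 12.4% up and 42.6% down at 4 h, where Irf4 (both times) and Irf3 (4 h) were the members down. The summed macrophage markers fell over the same libraries in RPM and moved little on the authors' scale, as given above. Most of that sum was Lyz2 (242489, 224263 and 209164 on the authors' scale), and single markers differed. Fcgr1 rose from 1432 to 4551 and 15965 and Adgre1 from 17259 to 25147 and 30273. Csf1r was at 46545, 53749 and 31846, and Mertk at 1445, 808 and 1355. The part of these markers in the folds was not tested.

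**Figure D2:**
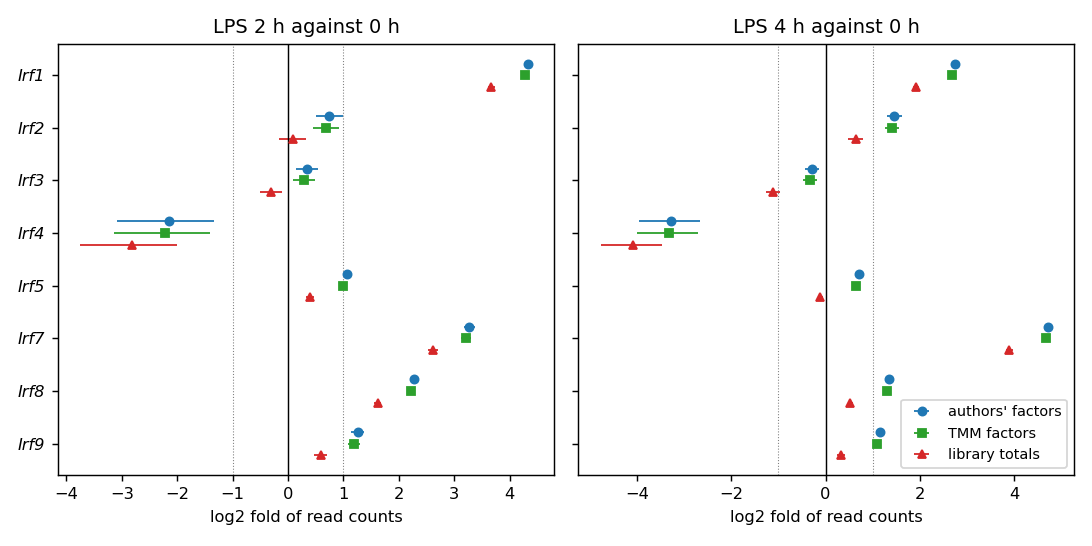
Log2 fold of read counts of the 8 members at 2 h and 4 h against 0 h under the authors' factors, TMM factors and library totals, with 95% counting intervals as bars and the 2-fold limits dotted (no pseudocount). Irf1 and Irf7 lie beyond the upper limit on every scale, Irf4 beyond the lower one, and Irf3 at 2 h and Irf5 at 4 h change side with library totals.

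The make-up of the family changed with time. Divided by transcript length, the order at 0 h was Irf5 with 31.4% of the family's summed level, Irf8 with 22.6%, Irf1 with 18.0%, Irf7 with 9.73%, Irf9 with 8.29%, Irf3 with 6.35%, Irf2 with 2.94% and Irf4 with 0.679%. At 2 h Irf1 led with 54.6%, before Irf8 with 16.5%, Irf7 with 14.1% and Irf5 with 9.81%. At 4 h Irf7 led with 49.6%, before Irf1 with 23.3%, Irf8 with 11.1% and Irf5 with 9.89%. The leading member thus differed at each time point, from Irf5 to Irf1 to Irf7. The family's sum rose from 3896 per kilobase in the 0 h library to 25913 (2 h) and 20178 (4 h), on the authors' scale. These shares do not depend on library scaling. Without division by length only Irf7 and Irf9, neighbours at 0 h, changed places.

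**Figure D3:**
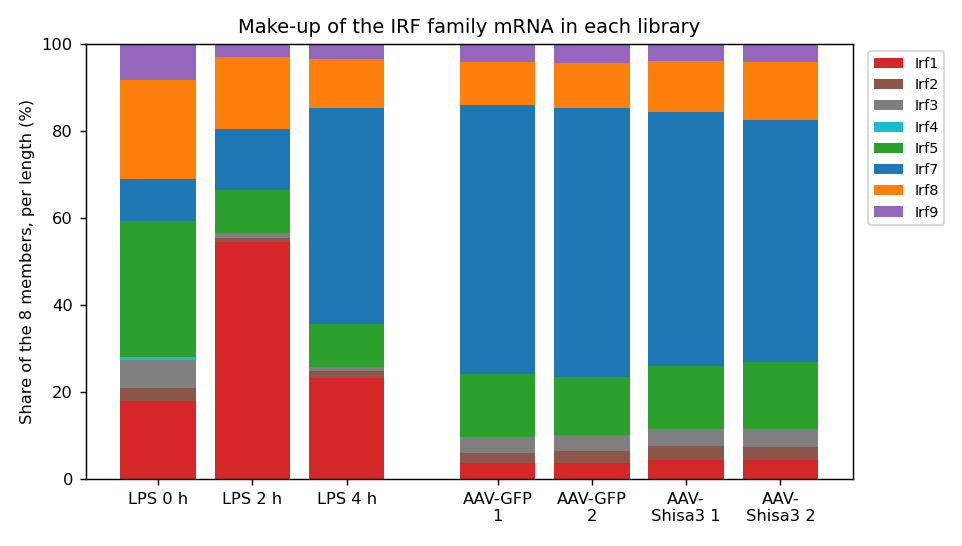
Share of each member in the summed per-length level of the 8 IRF genes (stacked bars, percent) in the 3 LPS libraries and the 4 AAV samples. Irf5 is the largest share at 0 h (31.4%), Irf1 at 2 h (54.6%) and Irf7 at 4 h (49.6%) and in all AAV samples (55.7% to 61.8%).

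The other genes of the pathway were taken from 4 lists. Of the interferons and their receptors, 5 of 11 listed genes passed the filter on low values. Their log2 fold changes had medians of 1.31 (2 h) and 1.67 (4 h). At both times 4 of the 5 were at least 2-fold higher, beside 20.5% (2 h) and 22.2% (4 h) of all genes. The other gene, Ifngr1, a subunit of the interferon-γ receptor, was at 1.10-fold (2 h) and 0.474-fold (4 h) and so lower at 4 h. With library totals 2 of the 5 were at least 2-fold up at each time, with medians of 0.65 and 0.84. Ifnb1, which encodes interferon-β, was counted with 1, 35 and 38 reads and was higher by at least 39.6-fold (2 h) and 10.7-fold (4 h), against a floor of 3 reads at 0 h. From 2 h to 4 h its value fell to 0.270 of its level. Of the 16 kinases and adaptors, 3 were at least 2-fold higher and 2 at least 2-fold lower at 2 h, and 5 and 1 at 4 h, with medians of -0.13 and -0.00, counts to be read beside the 20.5% and 24.7% (2 h) and 22.2% and 23.6% (4 h) of all genes. With library totals the counts were 2 higher and 7 lower at 2 h and 3 and 7 at 4 h, with medians of -0.79 and -0.83, beside medians over all genes of -0.68 and -0.80 on that scale and shares of 39.6% and 42.6% of all genes lower, near those of the list. Mavs, the mitochondrial adaptor of the RNA sensors, was at 531, 140 and 119, and Tlr3, a sensor of double-stranded RNA, was at 125, 245 and 1736, a rise of 7.10-fold from 2 h to 4 h.

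Of the 13 partner factors, 9 were at least 2-fold higher at both times, beside 20.5% (2 h) and 22.2% (4 h) of all genes. The medians of the 13 were 2.18 and 2.45 on the log2 scale. Irf2bp1 and Irf2bp2 were lower at 2 h and Irf2bp2 at 4 h, beside 24.7% and 23.6% of all genes. With library totals 8 were higher and 2 lower at 2 h and 9 and 3 at 4 h, with medians of 1.52 and 1.62. Stat2, a partner of IRF9, had values of 1217, 6448 and 11139. It was highest at 4 h, when Irf9 itself was at 2.21-fold. Irf2bp2, a corepressor that binds IRF2, fell from 4188 to 415 and 266, the largest fall among the listed genes at 4 h. Of the 32 target genes, 30 were at least 2-fold higher at 2 h and none lower, and 31 were higher and 1 lower at 4 h, with medians of 4.87 and 5.78. The largest rise was that of Nos2, the inducible nitric oxide synthase, from 9 reads at 0 h to 2724 and 94656 reads, 1027-fold and 8885-fold. Il27, a cytokine gene, rose 411-fold and Il12b, which encodes a subunit of IL-12, rose 413-fold at 2 h. Ccl5 rose 808-fold and Cxcl9 470-fold at 4 h, both chemokines, the latter from 6 reads. Ciita, the master regulator of MHC class II genes, was the target gene that fell at 4 h, with values of 621, 397 and 203. Socs1, a feedback inhibitor of interferon signalling, fell to 0.381 of its level from 2 h to 4 h after a rise of 232-fold.

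The second question was whether overexpression of Shisa3 changed the family in BMDMs. No member was called, either higher or lower, at an adjusted p under 0.05 (limma), when 2.23% of the 11218 genes tested were called higher and 4.1% lower. With an unadjusted p below 0.05, 1 member (Irf8) was higher and 0 were lower, against 8.21% and 19.8% of all genes. Irf4 was below the limit of 1 TPM and was not tested. The median log2 fold change of the 7 tested members was 0.09, beside -0.10 over all genes. The AAV-Shisa3 samples both lay above the AAV-GFP samples for 3 of the 7 members and below for 2, against 18.2% and 41.2% of all genes. Nothing says that the 2 samples of a group came from separate cultures, so the p-values measure only the spread between these samples, and an exact permutation test of 2 against 2 could not go below p = 0.333.

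Irf8 was at 165 and 167 TPM in the GFP group against 196 and 201 TPM in the Shisa3 group. The groups did not overlap, and the spread within each was small. The log2 fold change was 0.25 (SE 0.07, 95% interval 0.09 to 0.42, limma adjusted p = 0.0859), and after centring on sample medians it was 0.37 and passed the test with an adjusted p of 0.0460, while the adjusted p ranged from 0.0460 to 0.25 over all alternatives. Irf1 was at 63.3 and 60.0 TPM in the GFP group against 74.0 and 67.6 TPM in the Shisa3 group. These groups did not overlap either, with a log2 fold change of 0.20 (SE 0.09, adjusted p = 0.205). Irf2 was at 37.2 and 44.3 TPM in the GFP group against 54.6 and 45.0 TPM in the Shisa3 group. The groups lay next to each other, and the log2 fold change of 0.28 had an interval of -0.05 to 0.61 (adjusted p = 0.231).

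Irf7, the highest member, was at 1024 and 988 TPM in the GFP group against 975 and 849 TPM in the Shisa3 group. Both AAV-Shisa3 samples were lower, with a log2 fold change of -0.14 (interval -0.36 to 0.07, adjusted p = 0.333). Irf9 was at 67.1 and 68.2 TPM in the GFP group against 65.4 and 64.5 TPM in the Shisa3 group, a log2 fold change of -0.06 (interval -0.24 to 0.13, adjusted p = 0.648) whose direction changed to 0.06 after centring. Irf3 was at 62.5 and 57.6 TPM against 64.7 and 62.3 TPM, and Irf5 at 237 and 213 TPM against 242 and 235 TPM. In both the groups overlapped, with log2 fold changes of 0.08 (interval -0.13 to 0.29, adjusted p = 0.571) and 0.09 (interval -0.12 to 0.29, adjusted p = 0.526). Irf4 was listed at 0.16 and 0.14 TPM in the GFP group against 0.15 and 0.11 TPM in the Shisa3 group, with overlapping groups. Leaving out 1 sample kept the direction of each tested member but moved the size: Irf7 was at -0.24 without AAV-Shisa3 1 and -0.04 without AAV-Shisa3 2, Irf2 ranged from 0.15 to 0.42, Irf1 from 0.13 to 0.26, Irf3 from 0.02 to 0.14, Irf5 from 0.01 to 0.16, Irf8 from 0.24 to 0.27 and Irf9 from -0.07 to -0.05.

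**Figure D4:**
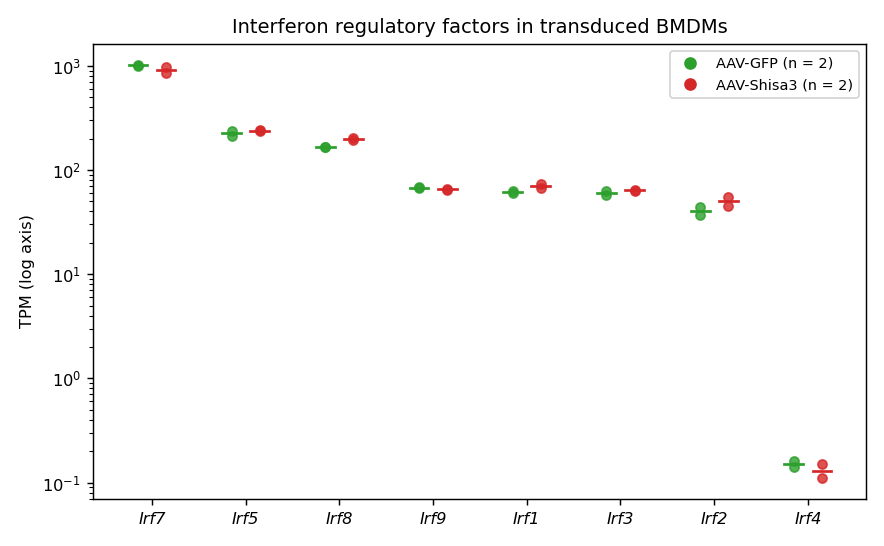
TPM (log axis) of the 8 IRF genes in each AAV-GFP sample (green, n = 2) and AAV-Shisa3 sample (red, n = 2), with bars at the group means. Irf7 is highest at 849 to 1024 TPM and Irf4 is under 1 TPM, while Irf8 is the member whose groups are farthest apart for their spread (165 and 167 against 196 and 201 TPM).

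In the AAV-GFP samples the order by mean TPM was Irf7 (1006 ± 25.9, SD, n = 2), Irf5 (225 ± 17.0), Irf8 (166 ± 1.79), Irf9 (67.6 ± 0.81), Irf1 (61.6 ± 2.31), Irf3 (60.1 ± 3.44), Irf2 (40.8 ± 5.05) and Irf4 (0.15 ± 0.014). Of the neighbours in this order, Irf1 and Irf3 did not differ beyond their spread. In the AAV-Shisa3 samples the order of Irf9 and Irf1 was reversed, with Irf1 above Irf9 in both and no overlap. Irf7 made up 61.8% and 61.8% of the family's TPM with AAV-GFP and 58.3% and 55.7% with AAV-Shisa3. In the untreated 0 h library Irf7 was 9.73% of the family per length, but the tables come from different experiments and were scaled separately, so this difference was not tested.

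The pathway lists moved unequally in the AAV comparison. Of the 29 target genes tested, 12 were higher and none lower at an adjusted p under 0.05, beside 2.23% and 4.1% of all genes. For 21 of the 29 the lowest Shisa3 value exceeded the highest GFP value, beside 18.2% of all genes. The reverse held for 2, beside 41.2% of all genes. The median log2 fold change of the 29 was 0.38, beside -0.10 over all genes. The largest was Cxcl10, a chemokine gene, at 177 and 192 TPM in the GFP group against 941 and 654 TPM in the Shisa3 group (log2 fold change 2.08, SE 0.17, limma adjusted p = 0.0142). It was followed by Il27 (1.31), Rsad2, an antiviral enzyme (1.30), Gbp5 (1.07), Ifit2 (0.85), Socs1 (0.83), Gbp3 (0.73), Ifit1 (0.72), Ifit3 (0.68), Mx2 (0.63), Oasl1 (0.60) and Mx1 (0.55), where Gbp5 and Gbp3 are guanylate-binding proteins, the Ifit and Mx genes are antiviral effectors and Oasl1 is known to restrain translation of Irf7 mRNA. Isg15, an interferon-induced ubiquitin-like modifier at 2023 and 1745 TPM against 1963 and 1698 TPM, had a log2 fold change of -0.04 and did not pass (adjusted p = 0.834). In the same test Irf9, Irf7 and Stat2 (-0.13, adjusted p = 0.348) did not pass. Without the trend, or with no filter, 0 target genes were called, and leaving out 1 sample gave 0 to 2 (0 without either AAV-GFP sample, 2 without either AAV-Shisa3 sample).

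Among the other lists, none of the 5 interferons and receptors tested passed, and Ifnb1 was at 1.45 and 0.95 TPM against 1.51 and 0.99 TPM (adjusted p = 0.940). Of 16 kinases and adaptors, 1 was called lower and 0 higher, near the 4.1% and 2.23% of all genes. The list median was -0.10, as over all genes. The gene called was Ticam2, the adaptor that joins TLR4 to the interferon branch, with 24.1 and 24.1 TPM in the GFP group against 15.5 and 15.1 TPM in the Shisa3 group (log2 fold change -0.62, SE 0.09, limma adjusted p = 0.0279). Of 12 partner factors, 2 were called lower and 1 higher, beside 4.1% and 2.23% of all genes. Batf (-0.72, limma adjusted p = 0.0178) and Batf3 (-1.07, adjusted p = 0.0203), AP-1 family partners of IRF4 and IRF8, fell and Nfkb1, an NF-κB subunit, rose (0.54, adjusted p = 0.0418). Batf was at 166 and 173 TPM in the GFP group against 99.8 and 106 TPM in the Shisa3 group. After LPS, which raised Irf8, Batf had instead risen from 66.3 to 1574 and 2212, while Batf3 was at 24.4, 19.7 and 15.2 from at most 38 reads. The calls of Ticam2, Batf, Batf3 and Nfkb1 were lost without the trend, with no filter and on leaving out any 1 sample.

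**Figure D5:**
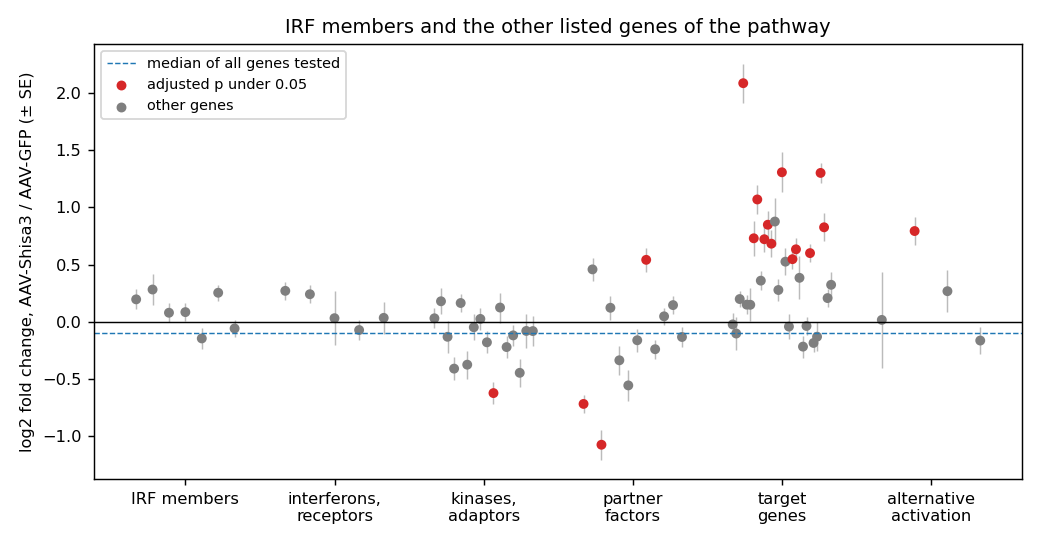
Log2 fold change of AAV-Shisa3 over AAV-GFP (± SE) for each tested IRF member and listed pathway gene, in red where the adjusted p was under 0.05. None of the 7 members is red, 12 of 29 target genes are, all above 0, and the dashed line is the median of all genes (-0.10).

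The summed neutrophil markers were higher in the Shisa3 group, mostly in AAV-Shisa3 1. Their sum was 514 and 481 TPM in the GFP group against 897 and 554 TPM in the Shisa3 group. None of the 6 was at 0, and none of the 4 tested passed the adjusted test. Most of the sum was S100a9 (347 and 312 against 602 and 361 TPM) and S100a8 (165 and 165 against 290 and 185 TPM). The 4 tested markers all had both AAV-Shisa3 samples above both AAV-GFP samples, beside 18.2% of all genes. Of the untested ones, Cxcr2 was lower (0.21 and 0.24 against 0.14 and 0.14 TPM) and Ly6g overlapped. The plasmacytoid dendritic cell markers, cells known for Irf7 and Irf8, summed to 4.87 and 6.09 TPM against 8.77 and 7.85 TPM, a difference carried by Cox6a2 (3.88 and 4.79 against 7.38 and 6.94 TPM), with Klk1 at 0 throughout and Siglech at 0.25 and 0.33 against 0.20 and 0 TPM, and the T cell markers to 6.01 and 7.77 TPM against 9.22 and 11.3 TPM, with Cd3e and Cd3d at 0 throughout. The part of these markers in the AAV results was not tested.

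Some reads could belong to neighbours. The exons of Irf1 overlap those of Gm17334 over 135 bases, Irf3 those of Bcl2l12 over 88, Irf5 those of Tnpo3 over 411 and Irf7 those of Phrf1 over 45 on the opposite strand, and Irf9 those of Rnf31 over 123 on the same strand. The use of strand in counting is not given in the sources used here, and these reads cannot be told apart.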

How the data were processed

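Total RNA of mouse BMDMs was sequenced by the submitters as paired-end libraries. The LPS table holds a signal for each gene: the authors scaled its reads by 1 factor a library before they deposited it. Every value was a whole number of reads within a tolerance of 0.001 (100% of values), so counts were recovered. The AAV table, as deposited, holds values read here as TPM, since each sample sums to just under 1000000; the unit is not named in it. The submitters' processing notes name the build mm9; aligner, counter and annotation are not given in the sources used here. The tables hold no coordinates. Those printed come from GENCODE M21 on GRCm38, with lengths of the longest coding transcript.

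Members and lists were chosen with earlier results of these data known. Named genes were all members, list genes past the AAV threshold and the 3 largest rises and falls of listed genes in each LPS comparison; Stat2, Isg15, Ifngr1, Irf2bp1, Cd209a and the single marker genes were named after their values were seen. The AAV groups were compared with limma 3.58.1 (trended, on log2(TPM + 1)), adjusted by Benjamini-Hochberg over the 11218 genes that averaged 1 TPM or more; fold changes of low genes are understated. LPS log2 ratios used value + 1 over the 17854 genes that averaged 1 or more, with no test; printed folds are ratios without it. Count folds have exact conditional binomial intervals at 95%. The fit was tested on simulated data with independent noise for each sample, and that outcome is not reported here. TMM factors came from edgeR 4.0.16. Alternatives were scaling, centring, pseudocount, filter, trend, replicate block and leaving out a sample. R 4.3.3, Python 3.11.15, pandas 2.3.3 and scipy 1.17.1 were used.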

Additional observations from a re-analysis of the deposited data

Results flagged for a closer look

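Irf3 moved in opposite directions in the LPS libraries, with a log2 fold change of 0.35 at 2 h against 0 h and of -0.28 at 4 h against 0 h. Each is 1 library against the same 0 h library, so the difference was not tested. With library totals both were below 0 (-0.31 and -1.10), and with centring on library medians the 4 h value was 0.09.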

How the results depend on the processing

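With library totals, members at least 2-fold higher went from 5 to 3 at 2 h and from 5 to 2 at 4 h, members lower at 4 h from 1 to 2, and listed genes (the 4 pathway lists and the alternative activation list together) lower from 5 to 12 at 2 h and from 6 to 15 at 4 h. Centring on library medians gave 3 listed genes lower at 4 h, and a pseudocount of 5 gave 1 member lower at 4 h against 2 h, from 2. For AAV, centring gave 1 member higher, from 0, and turned the log2 fold change of Irf9 from -0.058 to 0.058. Genes of the same 5 lists called higher (14) went to 0 without the trend, 0 with no filter and 0 to 2 on leaving out 1 sample, and those called lower (3) to 0 in each. Over all 11218 genes, 250 were called higher and 460 lower, 1 and 4 without the trend, and 0 and 0 with no filter. Without AAV-GFP 1 or AAV-GFP 2 no gene was called, without AAV-Shisa3 1 there were 20 and 5, and without AAV-Shisa3 2 there were 32 and 10. With at least 1 TPM in every sample 325 were higher and 617 lower, and centring gave 410 higher and 230 lower. The causes were not tested. A sample left alone in its group is assumed to vary like the others.

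Samples of the 2 groups share replicate numbers only; deviations of same-numbered samples correlated at 0.188 over genes. The replicate block called no member (0 higher, 0 lower), gave Irf8 an adjusted p of 0.0638, listed genes 17 higher and 3 lower, and 424 higher and 851 lower over all genes.

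The 2 h library, with 7263258 reads, limits Irf4 (13 reads) and Irf2 (220 reads). The AAV depth is unknown, and 2 samples a group limit what the test can call.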

Other observations

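Genes linked to alternative activation of macrophages, in which IRF4 takes part, formed a further list. Of 8 listed, 7 passed the filter in the LPS table, of which 3 (2 h) and 2 (4 h) were up by 2-fold or more, beside 20.5% and 22.2% of all genes, with medians of 0.84 and 0.17 on the log2 scale that became 0.18 and -0.65 with library totals. The genes counted as lower were Arg1 at 2 h and Arg1 and Cd209a at 4 h, and with a pseudocount of 5 the count was 0 at both times. Kdm6b, a histone demethylase, was at 85.6, 284 and 96.2 and fell to 0.339 of its 2 h level at 4 h. Arg1, arginase 1, had 5, 0 and 2 reads, too few to show a fall. With AAV, 1 of 4 tested genes was called: Chil3, a chitinase-like protein, rose, with 31.2 and 30.3 TPM in the GFP group against 60.5 and 48.1 TPM in the Shisa3 group (log2 fold change 0.79, SE 0.13, limma adjusted p = 0.0296), a call lost without the trend, with no filter and on leaving out any 1 sample, while Irf4 was under 1 TPM in all 4 samples.

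For the 6 members with a 2-fold difference and a mean value over the limit below, which leaves out Irf3 and Irf4, the nearest genes by log2 fold change at 2 h and 4 h were sought among the 8728 genes that averaged 100 or more, by Euclidean distance over these 2 ratios. For Irf1 they were Tnfaip2 (distance 0.0884, with 4.39 at 2 h and 2.67 at 4 h) and Zhx2 (0.131). For Irf7 they were Slc25a22 (0.0986) and Atp10a (0.109), and for Irf8 Ptger4 (0.0141) and Atp2b4 (0.0502). Irf2 lay nearest to Fbrsl1 and Tmem128, Irf5 to Cfp and Rn7s2, and Irf9 to Tbc1d10b and Ltv1. Each point rests on 3 libraries, of which the 0 h one is shared by both ratios.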
